A study of Homo sapiens with 6 samples.

Results

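The 8 genes described here, GAS5, SNHG1, SNHG5, SNHG6, SNHG8, SNHG12, SNHG16 and ZFAS1, are noncoding genes that carry small nucleolar RNAs (snoRNAs) in their introns. They were chosen by name, and every site on a gene's own strand whose midpoint fell inside its GENCODE span on hg19 was taken and placed in a host exon, an intron or an embedded snoRNA. This gave 3610 of the 10639684 sites of the 6 libraries, from 8 of 64486 annotated genes, with 33 snoRNA loci among them. The sites come from PAR-CLIP, in which cells take up 4-thiouridine (4SU), UV light at 365 nm crosslinks labelled RNA to protein, and a crosslinked base is read as a T-to-C conversion. All 6 libraries came from HEK293 cells, a human embryonic kidney line, given 4SU and UV, with RNase T1 as the nuclease. The libraries G20, G35 and G45 were background, with 1 library each: FLAG-tagged GFP, a protein that is not expected to bind RNA, was immunoprecipitated and a single gel slice was cut near 20, 35 or 45 kDa. Another 2 libraries (HuR replicates 1 and 2) came from immunoprecipitated FLAG-tagged HuR, and 1 library (Total) came from RNA of lysates treated in the same way with no immunoprecipitation, after depletion of ribosomal RNA. Both tagged proteins were expressed from stable, inducible transgenes, so that the HuR libraries report on tagged and not on endogenous protein.

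A snoRNA host gene is transcribed as 1 long precursor. Splicing joins the exons into a host RNA, and the intron that is removed is trimmed back to the snoRNA, which is kept because core proteins cover it. Box C/D snoRNAs bind fibrillarin and guide ribose methylation, whereas box H/ACA snoRNAs bind dyskerin and guide pseudouridine formation. HuR, encoded by ELAVL1, is a protein that shuttles between nucleus and cytoplasm and binds U-rich and AU-rich stretches of introns and 3′ ends of mRNAs.

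Sequences of 4 snoRNAs are shown first, since snoRNAs took most of the host reads in the slices. In each host the snoRNA with the most reads over the 6 libraries was taken (each library scaled to its total). For the 4 of these whose deposited sites held both boxes, the first and the last 30 bases of the site with the most reads are given 5′ to 3′ from hg19, with the C box (TGATGA) and the D box (CTGA) in capitals. The sites with the most reads in the G20 slice were SNORD44 of GAS5 (minus strand, chr1:173835137-173835166 and chr1:173835104-173835133), SNORD50B of SNHG5 (minus strand, chr6:86387353-86387382 and chr6:86387298-86387327) and SNORD1B of SNHG16 (plus strand, chr17:74557185-74557214 and chr17:74557240-74557269). SNORD30 of SNHG1 (minus strand, chr11:62621174-62621203 and chr11:62621138-62621167) had its largest site in Total.
SNORD44 first bases: cctggaTGATGAtaagcaaatgctgactga
SNORD44 last bases: tgaaggtcttaattagctctaaCTGActaa
SNORD30 first bases: tttgTGATGActtacatggaatctcgttcg
SNORD30 last bases: gacttgctgttgagactctgaaatCTGAtt
SNORD50B first bases: tggtctaatcaaTGATGAaacctatcccga
SNORD50B last bases: tacggattcggcttCTGAgattaagaccag
SNORD1B first bases: tgggagctgagtccaTGATGAtttcaagtt
SNORD1B last bases: cctttctgtgtggaatttgaatatCTGAaa
The 4 loci held 30.8 to 39.7% of the reads in host snoRNA loci in the 3 slices. Of the 28 SNORD loci in these hosts, 18 held TGATGA followed downstream by CTGA on the snoRNA strand, as did 31.0% of all 1514 snoRNA loci of the genome and 0 of the other 5 loci in the hosts. In G20 the SNORD44 site was 63 bases long with 2269 reads, and the SNORD50B site was 85 bases long with 1460 reads.

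The exon and intron sites with the most HuR reads in a host are shown for contrast where they had at most 30 bases, except that of SNHG6, with runs of 4 or more T in capitals. They are the intron site of SNHG5 with the most HuR reads (chr6:86378233-86378258, minus strand), the exon sites of ZFAS1 (chr20:47914963-47914991, plus strand), SNHG8 (chr4:119205871-119205894, plus strand) and GAS5 (chr1:173833813-173833835, minus strand), the intron site of SNHG8 (chr4:119200738-119200761, plus strand), and an intron site of SNHG16 (chr17:74637320-74637336, plus strand) that is treated with caution below.
SNHG5 intron site: tttattatactctttctctaTTTTTg
ZFAS1 exon site: aaccttaTTTTaTTTTatatacttctagg
SNHG8 exon site: tctgcccattacaacaatcactcg
GAS5 exon site: aattcatgattgaagaaatgcag
SNHG8 intron site: tacacagctcggagTTTTataatg
SNHG16 intron site: gacgctttgttcggggc
T made up 65.4% of the SNHG5 site and 51.7% of the ZFAS1 site, but 25% of the SNHG8 exon site, 33.3% of its intron site and 26.1% of the GAS5 site. The SNHG8 intron site had 4 reads in HuR replicate 2 and none in any other library. The SNHG5 site held 78 reads with 96 conversion events in HuR replicate 2, 1 read in replicate 1, 1 read in G20, and none in G35, G45 or Total. The ZFAS1 site, in the last exon, held 95 reads with 107 events in replicate 2 and 6 reads with 7 events in replicate 1, against 10 reads in G35, 1 read in G45 and none in G20 or Total. The reads of this ZFAS1 site in G35 and G45 carried no conversion.

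The libraries held between 6187300 and 38644636 reads at their sites, and the values below are scaled to these totals (RPM, reads per 1000000 reads of the library). In G20 and Total the 10 sites with the most reads took 76.5% and 61.9% of all reads, against 2.46% to 21.1% in the other 4, so that RPM of other sites is held down in those 2 libraries. The 3-read floor of a library lay between 0.0776 RPM in G20 and 0.485 RPM in G35. For the fit, libraries were rescaled by trimmed mean of M-values (TMM), whose factors ran from 0.243 in G20 to 3.28 in HuR replicate 2.

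The reads of the 8 hosts lay mostly in snoRNAs in the background and mostly outside them in HuR. In the G20 slice 93.3% of 14204 host reads fell in the 33 snoRNA loci (Wilson 95% interval 92.9 to 93.7%), in G35 71.9% of 1134 (69.2 to 74.4%), and in G45 68.2% of 931 (65.1 to 71.1%). In the HuR libraries the share was 3.80% of 2234 reads (3.09 to 4.68%) and 6.07% of 13735 reads (5.68 to 6.48%), which is 4.94% ± 1.60 (SD, n = 2), and Total lay in between with 50.4% of 18500 reads (49.7 to 51.2%). The slices and the HuR libraries did not overlap, and the gap was far larger than the spread of the HuR pair. That spread came with a single SNHG16 intron site, described further on, which took 844 of the host reads of replicate 1. Without it and the leading exon site of ZFAS1, a choice made after the data were seen, the snoRNA share was 6.12% and 6.08% in HuR, 68.4 to 93.5% in the slices and 60.8% in Total. The intervals cover counting error only, since PCR copies were not marked by molecular identifiers. Single hosts departed from the sum. SnoRNAs held 19.9% and 16.9% of SNHG16 reads in G35 and G45, and 31.5% and 27.3% of SNHG6 reads in G20 and G45. They held 40.6% of ZFAS1 reads in G35, and at least 50% in the remaining hosts and slices. In HuR they held 49.3% and 42.8% of GAS5 reads. SNHG16 supplied 1495 of the 2234 and 7325 of the 13735 HuR reads.

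**Figure D1:**
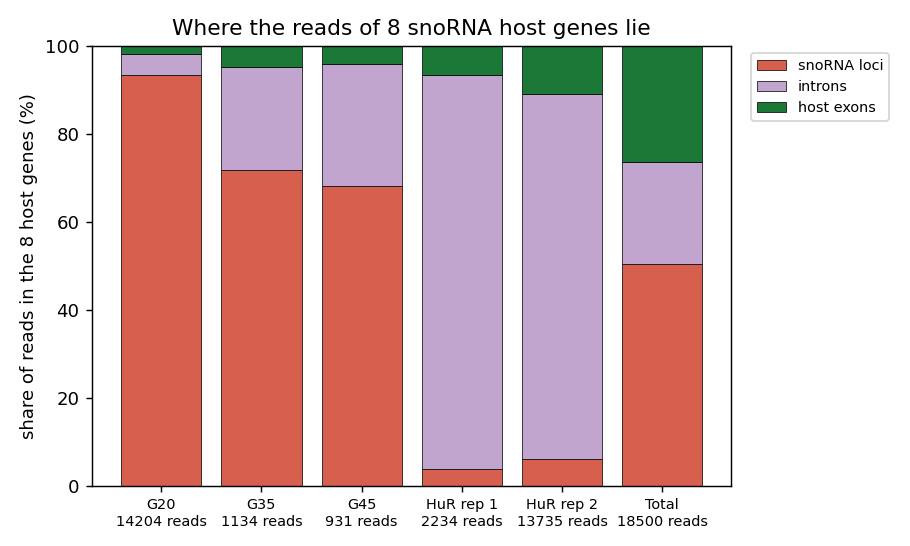
Share of the reads in the 8 snoRNA host genes (y axis, percent) that lay in snoRNA loci (red), introns (purple) and host exons (green) in each of the 6 libraries (x axis, with the host reads of each). The red part covers 68.2 to 93.3% in the 3 slices and 3.80 to 6.07% in the 2 HuR libraries.

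Introns held most of the HuR reads of the hosts over their whole annotated spans. Their share was 89.7% and 82.9% in the HuR libraries, 4.77%, 23.4% and 27.7% in G20, G35 and G45, and 23.2% in Total. Host exons held 6.54% and 10.99% in HuR (8.76% ± 3.15, SD, n = 2), 1.89%, 4.76% and 4.08% in G20, G35 and G45, and 26.4% in Total. Those exon shares turned on the same 2 sites. Without them they were 10.5% and 10.9% in HuR, 1.68 to 3.99% in the slices and 11.2% in Total, so that HuR and Total lay close together and both above the slices. SNHG16, whose annotated span of 113259 bases reaches far beyond its 3 snoRNAs, supplied many of the intron reads. Without it the exon share was 19.4% and 23.4% in HuR against 2.03 to 5.72% in the slices, and the snoRNA share was 10.6% and 11.1% in HuR against 84.4 to 96.2% in the slices. When every host was kept to 1000 bp around its snoRNA loci, a choice made after the data were seen, snoRNAs held 25.4% and 29.4% of the HuR reads and 90.2 to 97.9% of the slice reads. Introns then held 53.6% and 47.8% of the HuR reads, so not most of them in replicate 2. The exon definition mattered as well. Over whole spans and with exons of every transcript, exons held 20.9% and 37.1% in HuR, 2.85 to 13.6% in the slices and 34.8% in Total. All 3976 bases of SNHG1 and all 6614 bases of SNHG8 are exon in some transcript, so that these 2 hosts then have no intron.

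The 33 snoRNA loci were next read one by one. In the fit over all 42752 exon, intron and snoRNA features (edgeR quasi-likelihood test, Benjamini-Hochberg adjusted), 26 of the 33 loci were lower in HuR than in the mean of the 3 slices and none was higher, where 60.8% of all 278 snoRNA loci tested were lower. The share of the hosts' loci that were lower was 78.8%, and whether it differs from that of other snoRNAs was not tested. GENCODE names 6 of the 33, and the rest were drawn from the deposited sites themselves. A locus could also pass the filter on low counts through high counts in 1 library. The median log2 fold change was -4.73 over the 33 loci and -4.58 over all 278 loci, while the median over all features was 0.60. That closeness depended on the filter on low counts. Without it the median was -4.34 over the 33 loci, -1.85 over 509 snoRNA loci and 1.37 over all features. Only the HuR group was replicated, so the fit rests on 1 residual degree of freedom and takes the single libraries to vary as the HuR pair does. The spread of each feature was also drawn towards that of the other features. An adjusted p therefore does not measure the spread of the HuR pair at that locus alone. Without G20, edgeR called none of 43 member features, although 25 had an unadjusted p under 0.05, and with the clusters tables or with sites of 5 or more reads it called none either (6 of 43 and 12 of 47 unadjusted).

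The direction did not turn on the scaling. The 26 loci were lower in HuR with TMM, with DESeq2's size factors and with library totals alone, and 26, 26 and 9 of them passed in these 3 fits. The size of the change did turn on it. The median log2 fold change of the 26 was -5.06, -4.84 and -2.62 in these 3 fits, and the value nearest 0 was -3.40, -3.17 and -0.94. The fold changes of single loci below are those of the TMM fit. On the plain RPM scale both HuR libraries lay below all 3 slices at 21 of the 33 loci, where 55.0% of all snoRNA loci tested did so, and at no locus did both lie above (4.32% of all loci).

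**Figure D2:**
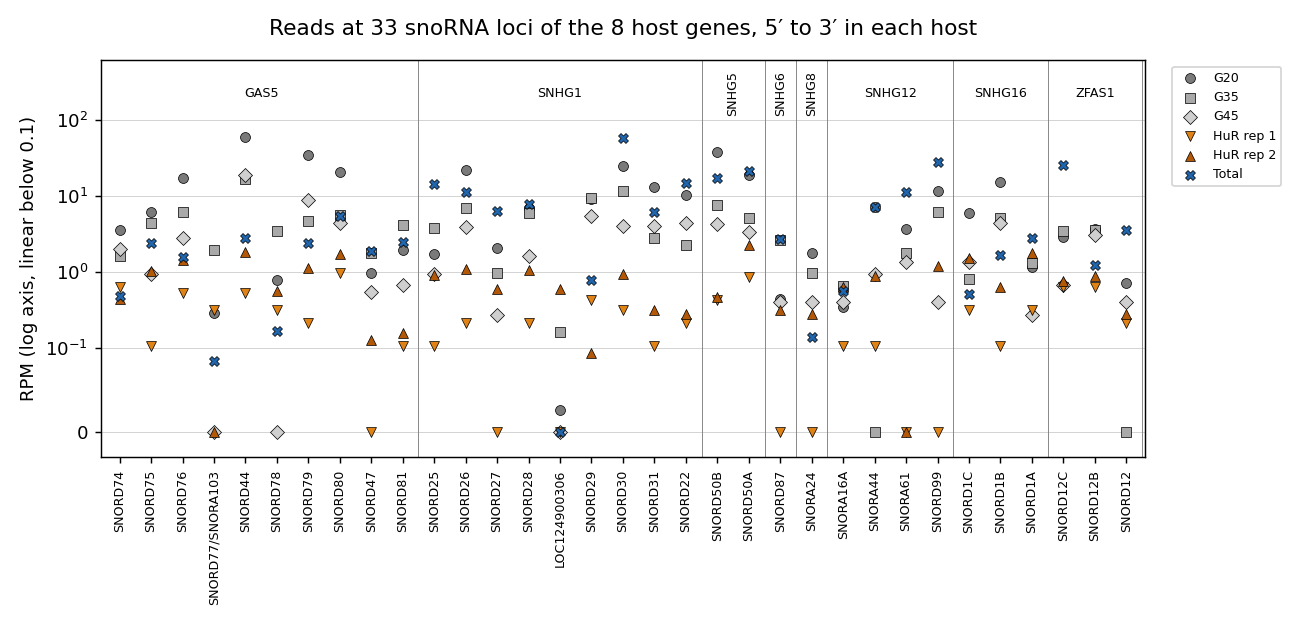
RPM (y axis, log scale, linear below 0.1) of each of the 33 snoRNA loci (x axis, ordered 5′ to 3′ in each host) in the 6 libraries. Grey symbols (slices) lie above both orange symbols (HuR) at 21 loci, and blue crosses (Total) are the highest at 13.

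GAS5, a gene first known from growth-arrested cells, carries 10 of the loci, all but 1 of them box C/D snoRNAs by name. The remaining one bears the names of 2 RefSeq snoRNAs that were joined because they lie within 40 bases (SNORD77 and SNORA103). Which of the 2 gave its reads was not tested. SNORD44 had 58.7, 16.6 and 18.6 RPM in G20, G35 and G45, 0.525 and 1.81 RPM in the HuR libraries, and 2.76 RPM in Total. Every slice lay above both HuR libraries and above Total, and the log2 fold change of HuR against the slices was -6.89 ± 1.27 (SE, adjusted p = 0.018). SNORD79 gave 34.3, 4.69 and 8.62 RPM in the slices and 0.210 and 1.12 RPM in HuR, with 2.34 RPM in Total. The log2 fold change against the slices was -6.44 ± 1.20 (SE, adjusted p = 0.018). SNORD78 and the SNORD77 locus had no read in G45, and neither passed the test.

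SNHG1, the host that was named UHG for its snoRNA U22 (SNORD22), had 9 loci. SNORD30 was highest in Total with 57.7 RPM, gave 24.5, 11.5 and 3.98 RPM in G20, G35 and G45, and fell to 0.315 and 0.934 RPM in HuR. Its log2 fold change was -6.40 ± 1.18 (SE, adjusted p = 0.018) against the slices and -7.72 against Total (adjusted p = 0.006). The locus LOC124900306 stood alone among the 33. It had 19 reads in HuR replicate 2, none in HuR replicate 1 and Total, and 1, 1 and 0 reads in G20, G35 and G45, so that it was the single locus with its highest RPM in a HuR library, and it did not pass (adjusted p = 0.78).

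In SNHG5 the snoRNA nearer the 5′ end, SNORD50B, gave 37.8, 7.43 and 4.24 RPM in the slices, 0.420 and 0.467 RPM in HuR, and 16.9 RPM in Total. Its log2 fold change against the slices was -6.87 ± 1.23 (SE, adjusted p = 0.018). SNORD1B of SNHG16 gave 15.1, 5.01 and 4.38 RPM in the slices and 0.105 and 0.623 RPM in HuR, again with no overlap (log2 fold change -6.55 ± 1.12, SE, adjusted p = 0.018). SNORD1A, its neighbour, did not share this. It had 1.14, 1.29 and 0.265 RPM in the slices and 0.315 and 1.74 RPM in HuR, which overlap, and did not pass (adjusted p = 0.19).

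SNORD99 of SNHG12 was highest in Total, with 27.4 RPM. The slices gave 11.3, 5.98 and 0.398 RPM and HuR none and 1.18 RPM, so that G45 lay between the HuR libraries. The locus passed the test against the slices all the same (log2 fold change -4.73 ± 1.20, SE, adjusted p = 0.032). SNORD12C of ZFAS1 was likewise highest in Total, with 25.4 RPM, against 2.82, 3.39 and 0.663 RPM in the slices and 0.630 and 0.747 RPM in HuR. Here too G45 lay between the HuR libraries, and the locus passed against the slices (log2 fold change -3.73 ± 0.92, SE, adjusted p = 0.029). SNORA61 of SNHG12 had no read in either HuR library, against 142, 11 and 10 reads in the slices and 400 in Total.

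SNHG6 and SNHG8 carry 1 snoRNA each, both with few reads. SNORD87 of SNHG6 had 17, 16 and 3 reads in G20, G35 and G45, 0 and 10 in HuR, and 97 in Total. SNORA24 of SNHG8, a box H/ACA snoRNA, had 67, 6 and 3 reads in the slices, 0 and 9 in HuR, and 5 in Total. Both were lower in HuR than in the slices (log2 fold change -4.42 ± 1.09 and -4.73 ± 1.09, SE, adjusted p = 0.029 and 0.024).

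Of the 7 loci that did not pass against the slices, 5 had a slice with no read (SNORD77/SNORA103, SNORD78, LOC124900306, SNORA44 and SNORD12), which leaves the mean of the slices ill defined on a log scale, and the other 2 were SNORA16A and SNORD1A. Summed over the loci of a host, RPM in both HuR libraries was below that of every slice in all 8 hosts, as it was in 58.8% of 170 genes with a tested snoRNA locus, some of which share loci. In SNHG6 and SNHG8 this rests on 3 reads in G45, the 3-read floor of that library.

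Against Total the order among snoRNAs was mixed. In the TMM fit HuR was lower than Total at 17 of 33 loci and higher at none (65.5% of all 278 snoRNA loci were lower). None of the 33 passed there between the slices and Total (6.83% of all loci were lower and 0.360% higher), with 12 at an unadjusted p under 0.05. Other fits did call some loci between the slices and Total. DESeq2's size factors called 2 higher in the slices, and DESeq2 in place of edgeR 5 higher. Without the filter 1 was higher and 5 lower, and with library totals 1 was lower. Over all features these 4 fits called 2373 higher and 2577 lower, 2157 and 334, 2127 and 6576, and 187 and 2657. Of the 33 loci, 18 had more RPM in G20 than in Total. GAS5 snoRNAs summed to 144 RPM in G20, 50.1 in G35, 38.5 in G45 and 19.4 in Total, so each slice lay above Total. SNHG12 snoRNAs went the other way, with 22.5, 8.40 and 3.05 RPM in the slices and 46.2 RPM in Total. ZFAS1 snoRNAs also had more in Total, 30.2 RPM, than in any slice (7.19, 6.95 and 4.11 RPM).

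**Figure D3:**
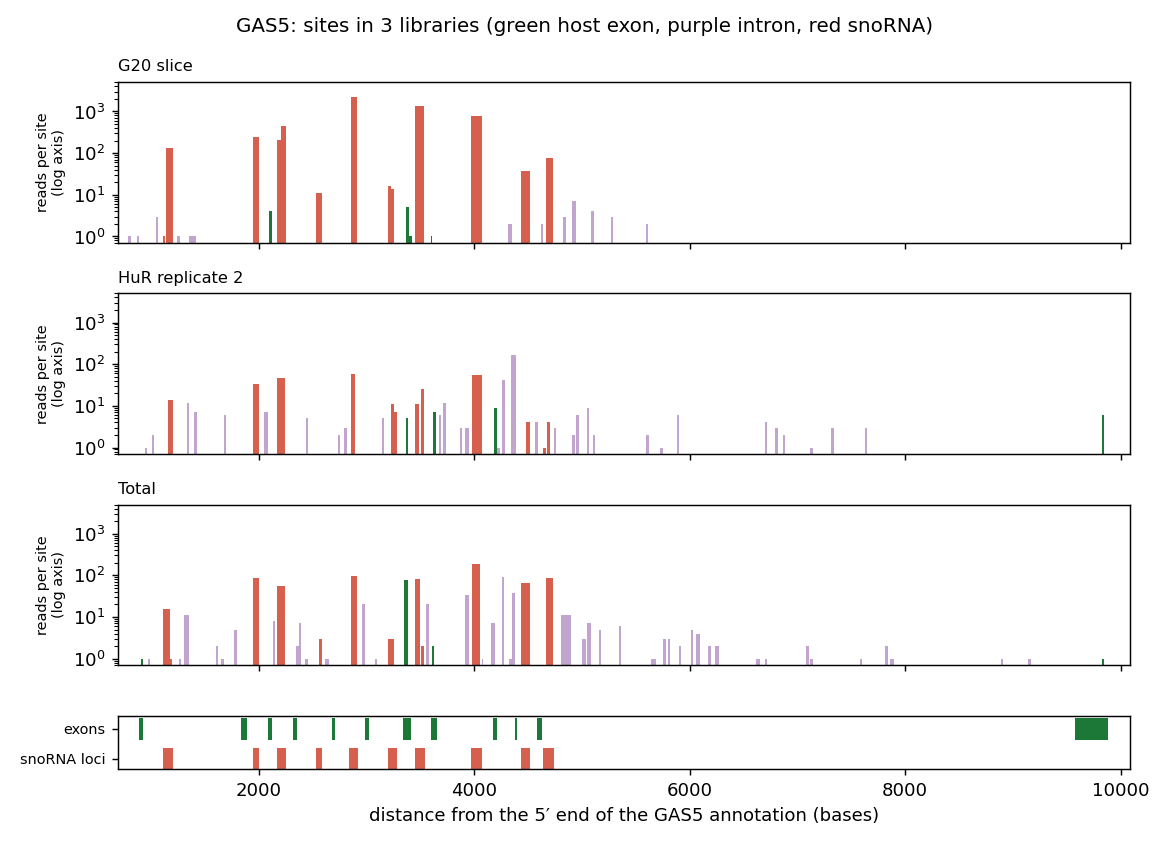
Sites of GAS5 by their distance from the 5′ end of its annotation (x axis, bases) with their reads (y axis, log scale) in the G20 slice, HuR replicate 2 and Total, coloured by part, over the exons and snoRNA loci. In G20 the tall sites lie on the snoRNA loci, the highest with 2269 reads at SNORD44, while the highest site of HuR replicate 2, with 164 reads, lies in an intron.

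Exons and introns of the hosts behaved differently from the snoRNAs, and here the scaling between libraries mattered. As RPM, both HuR libraries lay above all 3 slices in the introns of 6 of 8 hosts and in the exons of 3 of 8, where 60.5% of all introns and 35.7% of all exons tested did so. No host had exons or introns below all slices in both HuR libraries (7.32% of all exons and 0.384% of all introns did). More RNA of a host and more contact per RNA cannot be told apart in these counts. After TMM scaling none of the 8 exon features or of the 7 intron features tested passed in HuR against the slices in edgeR (the backgrounds were 1.26% of exons higher, 9.72% lower, and 2.36% of introns higher, 1.59% lower), with 1 of each at an unadjusted p under 0.05. DESeq2's size factors in the same fit likewise gave none. With library totals alone 6 passed as higher: the introns of GAS5, SNHG1, SNHG5, SNHG6 and ZFAS1 and the exons of SNHG8. That scaling moved the median of all features from 0.60 to 2.81 on the log2 scale and turned the calls over all features from 811 higher and 2266 lower to 13474 higher and 176 lower, with 2606 higher and 2893 lower under DESeq2's size factors. The fit without a filter on low counts called 1 feature, the SNHG5 introns, as higher (log2 fold change 2.26, adjusted p = 0.037). Over all genes it called 4306 of 73112 features higher and 2837 lower. In the TMM fit with the filter the median log2 fold change was -0.19 over 8 host exon features and 0.01 over all exon features, and 0.85 over 7 host introns and 0.95 over all introns.

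Against Total, the exons of 1 host (ZFAS1) were lower in HuR and in the slices and no other exon or intron feature of the 8 hosts passed in edgeR with TMM scaling and the filter on low counts, with 4 exons at an unadjusted p under 0.05 in each comparison and 0 and 2 introns. Over all genes 0.515% of exons were higher and 23.1% lower in HuR than in Total, and 1.14% of introns were higher and 0.496% lower. For the slices against Total, 1.46% of exons were higher and 6.45% lower, and 2.87% of introns were higher and 0.632% lower. These calls depended on the filter. Without it the exons of GAS5, SNHG1, SNHG5 and ZFAS1 were lower in HuR than in Total. The exons of SNHG1, SNHG5, SNHG8 and ZFAS1 and the introns of GAS5 and SNHG5 were then lower in the slices than in Total. Of all 73112 features in that fit, 6452 were lower and 1524 higher in HuR than in Total. For the slices against Total, 6576 were lower and 2127 higher. DESeq2's size factors also called the GAS5 introns lower in the slices (log2 fold change -4.24 ± 1.45, SE, adjusted p = 0.037), where G45 had no read, and the 1000 bp limit the SNHG16 introns. With library totals alone the ZFAS1 exons passed for the slices and not for HuR.

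The median log2 fold change of HuR against Total was -2.34 over the host exons and -1.98 over all exons, and -0.36 over the host introns and 0.88 over all introns. For the slices against Total it was -1.94 and -1.87 in exons, and -1.72 and -0.20 in introns. Host introns thus lay below the median of all introns in both comparisons with Total, and whether they differ was not tested.

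ZFAS1, which starts beside the promoter of the coding gene ZNFX1 on the other strand, had the most exon reads of the hosts in HuR, G35 and Total, while SNHG5 (78 reads) had the most in G20 and SNHG1 (16 reads) in G45. Its exons gave 1.32, 3.88 and 0.531 RPM in G20, G35 and G45, 6.30 and 16.9 RPM in HuR, and 97.3 RPM in Total. Both HuR libraries lay above the slices and well below Total. The exons were lower in HuR than in Total (log2 fold change -4.33 ± 1.09, SE, adjusted p = 0.020), and lower in the slices than in Total (-4.96, adjusted p = 0.031). Of the 3495 exon reads of Total, 3160 lay at 1 site of 67 bases (chr20:47895679-47895745). Without that site the exon reads of Total were 335 (9.32 RPM), which lies between the HuR libraries (6.30 and 16.7 RPM), and neither comparison with Total passed for any exon of the 8 hosts.

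SNHG1 exons gave 1.58, 1.94 and 2.12 RPM in the slices, 5.77 and 12.3 RPM in HuR, and 22.1 RPM in Total, in that order with no overlap between the 3 kinds of library. The comparisons did not pass (adjusted p = 0.97 for HuR against the slices, 0.096 for HuR against Total and 0.092 for the slices against Total). Per kilobase of exon, SNHG1 was the highest of the hosts in both HuR libraries, with 4.97 and 10.6 RPM per kb, and ZFAS1 came next with 1.39 and 3.74. The 2 HuR ranges do not overlap, and the remaining hosts lay between 0.112 and 2.41 RPM per kb, of which SNHG5, SNHG6 and SNHG8 overlap the range of ZFAS1. In Total, ZFAS1 exons (21.5 RPM per kb) and SNHG1 exons (19.0 RPM per kb) stood above the other 6 hosts (0.447 to 3.49 RPM per kb). Without its leading site ZFAS1 fell to 2.06 RPM per kb, below SNHG5 (3.49) and GAS5 (2.94).

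SNHG8 exons, which in the canonical transcript fill 6166 of 6614 bases of the gene, gave 0.466, 0.485 and 0.398 RPM in the slices, 1.37 and 9.19 RPM in HuR, and 5.65 RPM in Total. The slices lay below both HuR libraries, with 3 reads each in G35 and G45, which is the floor of those libraries. The TMM fit gave a log2 fold change of 1.04 ± 0.86 (SE, adjusted p = 0.44). GAS5 exons were low everywhere, with 0.285, 0.323 and 0.531 RPM in the slices, 0.315 and 0.841 in HuR, and 2.25 in Total. The slices and HuR overlapped. SNHG12 exons overlapped as well, with 0.398 to 0.518 RPM in the slices and 0.210 and 0.716 in HuR, and gave the lowest exon value of the 8 in the TMM fit (log2 fold change -2.34 ± 1.005, SE, adjusted p = 0.15). SNHG16 exons held at most 9 reads in any library.

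Among the introns, those of SNHG16 and ZFAS1 had the most RPM. SNHG16 introns gave 11.7, 27.8 and 29.4 RPM in the slices, 156 and 224 RPM in HuR, and 61.6 RPM in Total. The HuR values lay above all others. In HuR replicate 1, however, 844 of the 1485 intron reads lay at the 17-base site printed above, with 1 conversion event among them, and that site had no read in replicate 2. Without it replicate 1 had 641 intron reads (67.3 RPM), close to Total. In the HuR libraries 4.18% and 4.16% of the SNHG16 intron reads lay within 1000 bp of its snoRNA loci, so nearly all came from other stretches of the long span. ZFAS1 introns gave 3.16, 6.30 and 1.86 RPM in the slices, 37.5 and 61.9 in HuR, and 28.2 in Total. HuR was again above every other library, but the TMM fit did not call it (log2 fold change 1.56 ± 0.79, SE, adjusted p = 0.21).

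SNHG5 introns were at 0.854, 1.45 and 1.59 RPM in the slices, 8.19 and 44.0 RPM in HuR, and 14.8 RPM in Total. The HuR replicates differed from each other by more than HuR replicate 1 did from Total, and the log2 fold change of 1.86 ± 0.79 against the slices did not pass (SE, adjusted p = 0.15). It passed without the filter and with library totals alone. GAS5 introns had 0.828, 3.07 and 0 RPM in the slices, 3.46 and 10.4 RPM in HuR, and 9.05 RPM in Total. Their leading HuR site (chr1:173833636-173833682) had 164 reads with 165 events in HuR replicate 2, 4 reads in replicate 1, and 39 reads with 10 events in Total. SNHG12 introns overlapped between the slices (0.265 to 2.75 RPM) and HuR (1.47 and 4.52 RPM). SNHG8 introns had no read in any slice or in HuR replicate 1 and 11 reads in replicate 2, and were too low to be tested. Per kilobase of intron, the 7 other hosts lay between 0.304 and 2.26 RPM per kb in HuR replicate 1 and between 1.19 and 3.73 RPM per kb in replicate 2, with ZFAS1 first in both.

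**Figure D4:**
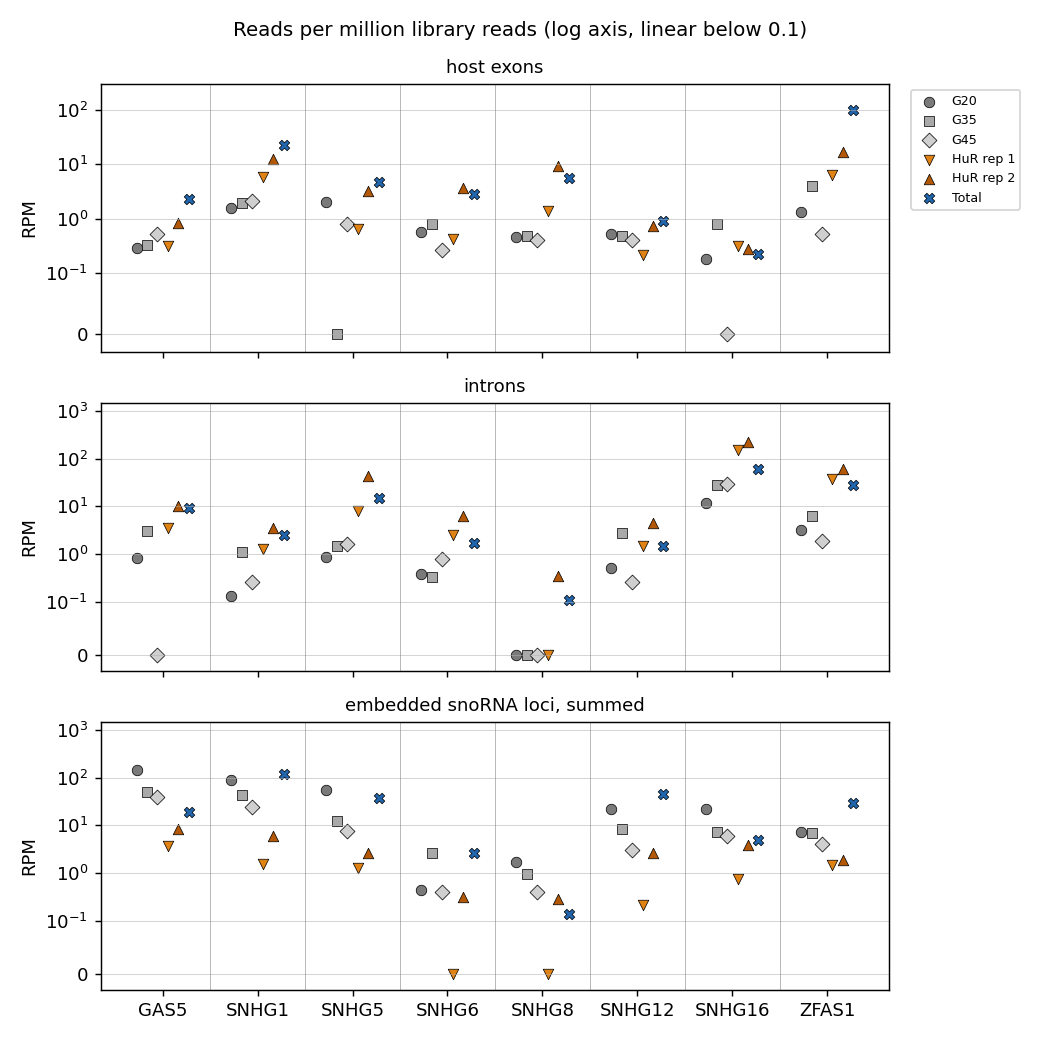
RPM (y axes, log scale, linear below 0.1) of the host exons, introns and summed snoRNA loci of each of the 8 hosts (x axis) in the 6 libraries. In the lowest panel both HuR symbols (orange) lie below all 3 slices (grey) in each host, and in the intron panel they lie above them in 6 hosts.

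Conversions separated the parts too. In snoRNA loci of the hosts there were 5.54, 28.7 and 9.13 conversion events per 100 reads in G20, G35 and G45 and 3.85 in Total, against 47.1 and 55.6 in HuR (51.3 ± 6.1, SD, n = 2). A read can carry up to 2 conversions, so these are not shares of reads. In all snoRNA loci of the genome, the hosts' loci among them, the same measure was 6.55, 34.5, 16.3, 59.6, 71.5 and 4.58 in G20, G35, G45, HuR replicates 1 and 2 and Total, so the hosts lay below all loci in each library. SNORD44 alone carried 96 events in 2269 reads in G20, and SNORD50B 3 events in 608 reads in Total.

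In host exons there were 92.5 and 106 events per 100 reads in HuR (99.2 ± 9.5, SD, n = 2), 18.7 in G20, 94.4 in G35, 81.6 in G45 and 6.17 in Total, which rose to 15.2 in Total without the leading ZFAS1 site. G35 and G45 were thus near HuR, but they rest on 54 and 38 exon reads. Introns of the hosts had 54.4 and 98.7 events per 100 reads in HuR, 26.7, 66.4 and 39.5 in the slices and 22.4 in Total. Without the SNHG16 site of 844 reads and 1 event, replicate 1 had 93.9, near replicate 2. T made up 29.9 to 32.3% of the bases of snoRNA sites over the 6 libraries, 26.2 to 33.2% of those of exon sites and 21.7 to 33.2% of those of intron sites. Within single libraries the order of the parts differed. In G20 snoRNA sites held 30.2% T against 26.2% in exon and 21.7% in intron sites. In Total they held 29.9% against 28.4% and 27.8%. In HuR replicate 1 they held less than both, 31.8% against 32.2% and 33.2%, and in replicate 2 also less than both. In G35 and G45 they lay between the other parts. Whether T content bears on the conversions was not tested.

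**Figure D5:**
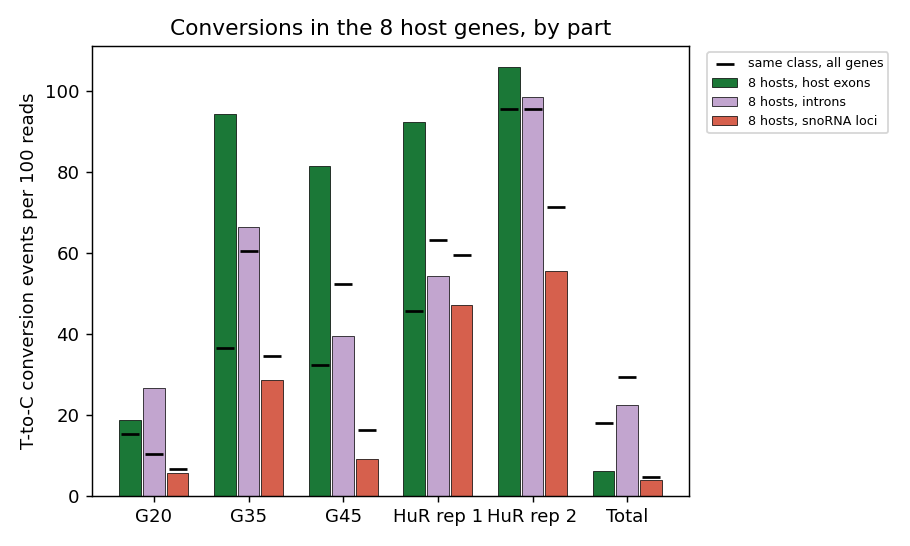
T-to-C conversion events per 100 reads (y axis) in host exons (green), introns (purple) and snoRNA loci (red) of the 8 hosts in each library (x axis), with black dashes for all genes in the same class. Red bars are the lowest of the 3 in each library, from 3.85 in Total to 55.6 in HuR replicate 2.

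The bases of the sites were compared with those of sites in all genes. A run of TTTTT on the transcript strand was present in 13.5% and 17.3% of the host intron sites of HuR replicates 1 and 2 and in 13.5% and 22.5% of all their intron sites. It was present in 8.22% and 11.4% of the host exon sites of HuR and in 11.7% and 17.1% of all exon sites. In the host intron sites of G20, G35, G45 and Total it was present in 4.45%, 13.3%, 17.6% and 8.21%. Site lengths differ between libraries, with a median of 27 bases in the host introns of the slices and HuR replicate 2, 25 in HuR replicate 1 and 24 in Total, and longer sites hold a given run more often.

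How far HuR sites in the hosts coincide with background was read from sites sharing at least 1 base on the same strand. Of the host exon reads, 58.2% of 146 in HuR replicate 1 (Wilson 95% interval 50.1 to 65.9%) and 52.8% of 1510 in replicate 2 (50.3 to 55.4%) lay at sites that any slice also held. For exons of all genes these were 71.8% and 54.4%. For host introns they were 60.9% and 39.0%, against 49.8% and 20.6% for introns of all genes. The value of replicate 1 turned on the SNHG16 site, which counts as shared through 2 reads in G45. Without it 32.4% of 1159 intron reads were shared (29.7 to 35.1%). The value for all genes had no site removed, so the 2 are not alike and their order is left undecided for replicate 1. Counted by sites, 20.8% and 19.7% of the host intron sites of replicates 1 and 2 were shared, against 7.36% and 6.63% of all intron sites. For host snoRNAs nearly all HuR reads were at such sites, 100% of 85 and 98.7% of 834, against 83.7% and 88.7% in all snoRNA loci. GENCODE names 6 of the 33 host loci, and the rest were drawn from deposited snoRNA sites. Each of the 33 held reads in G20, so that a shared base was likely beforehand. Sites in hosts with many background sites are more likely to meet one by position, and this was not tested. SNHG1 had the highest shared portion of exon and intron reads in both HuR libraries (71.6% and 80.2%), and SNHG5 the lowest (5.95% and 15.7%).

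Other hosts showed a like division. In 15 other noncoding hosts with 28 snoRNA loci, snoRNAs held 73.4%, 44.3% and 47.2% of the host reads in G20, G35 and G45, 6.17% and 3.28% in HuR, and 50.8% in Total. In 35 protein-coding hosts with 90 snoRNA loci, many of them ribosomal protein genes, the shares were 71.2%, 49.3% and 51.7%, then 6.27% and 7.88%, and 41.2% in Total. Against the slices, 15 of 23 snoRNA loci tested in the noncoding hosts and 64 of 86 in the coding hosts were lower in HuR and none was higher. Of all 278 snoRNA loci tested, 60.8% were lower and none was higher. Of the exon features, none of 15 passed in the other noncoding hosts while 9 of 35 were lower and none higher in the coding hosts. Of all exons 9.72% were lower and 1.26% higher, and whether the lists differ was not tested. The lowest of these exon and intron features were the exons of RPL3 (399, 36 and 37 reads in the slices, 1 and 5 in HuR, log2 fold change -7.92) and of RPL7A (-6.16), both encoding proteins of the large ribosomal subunit. The highest were the exons of RPL21, which had 34 reads in HuR replicate 2 and none in any other library and did not pass, and the introns of the translation initiation factor gene EIF4A2 (10, 6 and 0 reads in the slices, 48 and 450 in HuR, log2 fold change 4.33 ± 1.21, SE, adjusted p = 0.043). Of the 14 genes for proteins that assemble or form snoRNA particles, such as FBL (fibrillarin), NOP58 and DKC1 (dyskerin), 4 had exons lower in HuR than in the slices and none higher (9.72% and 1.26% of all exons), and no intron feature of theirs passed.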

How the data were processed

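The authors aligned 50 bp reads to hg19 with Bowtie and grouped uniquely aligned, overlapping reads into sites with PARalyzer; each deposited table gives the read count, conversion locations and conversion events of a site. Here counts were summed, per GENCODE release 44 gene lifted to hg19, over canonical exons, introns and snoRNA loci, placing sites by midpoint. The 1514 snoRNA loci joined 1458 GENCODE entries with 2032 deposited sites annotated as snoRNA, merged within 40 bases (a gap set after the data were seen). Names followed the 5′ to 3′ order of RefSeq snoRNAs (GRCh38.p14, no coordinates used); 6 of 6 loci that GENCODE names had the same name by order. All 3610 host sites matched GRCh37 sequence.

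edgeR 4.0.16 was run on 6 libraries in 5 groups (TMM, filterByExpr, quasi-likelihood, Benjamini-Hochberg at 0.05 over 42752 features), after a check on simulated counts. SE is the fold change divided by the root of F. The contrasts were HuR minus the mean of the slices, HuR minus Total and slices minus Total; the first 2 share the HuR libraries, and each pair of contrasts shares a group. Alternatives covered scaling, filters, DESeq2 1.42.0, exon definition, the deposited clusters tables, left-out libraries and, after the data were seen, 1000 bp limits and removal of 2 leading sites. The labels do not say whether the 2 HuR replicates were separate cultures, so p-values rest only on the spread between those samples. That spread was estimated with information shared across features, not from each feature alone. Named items were all 8 hosts, the snoRNA with the most scaled reads in each, and the exon and intron sites with the most scaled reads in HuR and in the slices; other loci named were chosen after their values were seen. The members and the lists of other hosts were chosen with earlier results of these data known.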

Additional observations from a re-analysis of the deposited data

How the results depend on the processing

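No paired analysis was possible because only HuR carries replicate numbers. Of the 48 member features tested, 26 passed in HuR against the slices, 18 in HuR against Total and 1 in the slices against Total, all lower. Over all 42752 features these 3 contrasts called 811 higher and 2266 lower, 375 and 4351, and 975 and 1305. Under library totals alone 15, 1 and 2 member features passed, with 13474 higher and 176 lower, 9 and 96, and 187 and 2657 over all features. The deposited clusters tables and sites with 5 or more reads each gave 0, 0 and 0 in edgeR, and no feature of any gene passed there (unadjusted p under 0.05 in 6, 13 and 2 member features with clusters, 12, 9 and 1 with sites of 5 or more reads). Without G20 the contrasts with the slices gave 0 and 0 (25 and 15 unadjusted), again with no feature of any gene. For the slices against Total, DESeq2's size factors gave 4, no filter 12, DESeq2 6, the 1000 bp limit 2, removal of the leading ZFAS1 and SNHG16 sites 0 (18 unadjusted), without G35 0 (14 unadjusted) and without G45 0 (16 unadjusted). Without a filter, features over all genes called in HuR against the slices were 4306 higher and 2837 lower, against 811 and 2266, and with DESeq2's size factors 2606 and 2893. With the slices as 3 replicates of 1 group 26 member features passed in HuR against the slices, all lower, with 235 higher and 1884 lower over all features.

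The 26 snoRNA loci called lower in HuR than in the slices kept that sign in each planned and added fit except with the clusters, where 21 of 26 were lower and SNORD47, SNORD74, SNORD27, SNORD1C and SNORA24 came to 0, 0.057, 0.82, 1.62 and 0.036 on the log2 scale. Without G20, 1 of the 26 was too low to be tested. With a HuR replicate left out there is no residual degree of freedom and so no test; the median log2 fold change of the 26 was then between -6.28 and -4.93.

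HuR minus the mean of the slices was 5.19 percentage points for the exon share, 19.4 with exons of every transcript, 9.59 with clusters, 17.0 without SNHG16, 18.7 within 1000 bp of the snoRNA loci, and -0.74 with each site counted once, where its sign turned. The same difference for the snoRNA share was -72.9 points, -83.0 with clusters, -81.4 at 5 or more reads, -79.0 without SNHG16, -66.6 within 1000 bp and -22.5 with each site counted once. For conversion events per 100 exon reads it was 34.3, and 52.8 with exons of every transcript, 51.2 with clusters and 49.1 at 5 or more reads. HuR exon reads at sites shared with slices averaged 55.5%, 41.5% where at least 50% of the HuR site was shared, 28.4% with slice sites of 5 or more reads, and 43.1%, 18.1% and 16.1% with G20, G35 or G45 by itself. The cause of these moves was not tested. The exon values of G35 and G45 rest on 54 and 38 reads.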
